A study of Mus musculus with 6 samples.

Results

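The genes described here encode the enzymes and transporters that take glucose to lactate, that run the pentose phosphate pathway and that build and break glycogen. They were chosen by name, as 35 genes, with earlier results of these data known. Each was read from its brightest probe set among those annotated to that gene alone, with control probe sets left out. Of the 35 genes, 31 had such a probe set, and all 31 passed the filter on dim probe sets. Across the whole series 18193 genes had one and 10807 passed the filter. Gpi1, Eno1 and G6pdx were not analysed here, and Gapdh was covered only by control probe sets and by probe sets that the annotation also gives to its pseudogenes.

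The RNA was from marrow of the femur and tibia. The donors were HdcGFP mice, female and of C57BL/6 background. In these mice a green fluorescent protein reports Hdc, the gene of the histamine-making enzyme histidine decarboxylase. Cells bearing CD11b and Gr1 were sorted into those with positive or high reporter signal (GFP_plus, 3 arrays) and those with negative or low signal (GFP_min, 3 arrays). All samples carry the reporter and no treatment is named. The labels give no age and do not say whether the arrays of a group came from separate mice, and the spread that the p-values rest on is that between arrays and may be technical. The description of GFP_min replicate b reads Gr1-negative, while its sorted-cell label reads Gr1-positive.

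Neutrophils draw most of their energy from glycolysis, the cytosolic conversion of glucose to pyruvate and lactate, since they hold few mitochondria. The pentose phosphate pathway leaves glycolysis at glucose 6-phosphate. It yields ribose for nucleotides and NADPH, which the phagocyte oxidase uses to make superoxide. Glycogen, a branched store of glucose, builds up as neutrophils mature and supplies glucose 6-phosphate where glucose is scarce.

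On the deposited log2 scale the array medians lay between 2.82 and 2.88. Pairs of arrays within a group had correlations over probe sets of 0.996 to 0.997, and pairs across groups 0.978 to 0.982. Hdc, the basis of the sort, was 11.19 ± 0.03 in GFP_min and 12.01 ± 0.06 in GFP_plus (mean ± SD, n = 3 each). Itgam, which encodes CD11b, was 11.58 ± 0.23 and 11.84 ± 0.13. Ly6g, a gene of the Gr1 antigen, was not analysed here. Of 12 listed monocyte markers 11 were measured and 10 fell, with a median difference of −5.29. Their mean level per array was 11.53 to 11.57 in GFP_min and 6.93 to 7.15 in GFP_plus, and none of the 11 lay below the median of all 6 arrays. Ccr2, a chemokine receptor of monocytes, fell from 12.03 ± 0.05 to 6.51 ± 0.36. Neutrophil markers rose for 8 of 13, with a mean level of 12.52 to 12.57 in GFP_min and 13.05 to 13.15 in GFP_plus. The largest rises were those of Elane (1.72), Mpo (1.49), Ctsg (1.31) and Prtn3 (0.96). Ltf, Camp, Ngp, S100a8 and S100a9 did not pass, with differences of −0.03 to 0.07. Of all tested genes 21.0% rose and 27.6% fell at a limma adjusted p under 0.05. In sorted bulk samples, fewer cells of a type and less RNA per cell cannot be told apart.

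GFP_plus cells had higher transcripts for glucose transporters, hexokinase 3, the regulators Pfkfb3 and Pfkfb4, pyruvate kinase, lactate dehydrogenase A, 4 of 6 measured enzymes of the pentose phosphate pathway, and Gys1, Gbe1, Ugp2 and Pygl of glycogen metabolism. Of the 31 genes 18 rose and 2 fell on the deposited scale at a limma adjusted p under 0.05. After centring on the poly-A control RNAs, by contrast, 2 rose and 12 fell, where 3.89% and 55.8% of all tested genes did. On the deposited scale 21.0% of all 10807 tested genes rose and 27.6% fell (48.7% in either direction), while 58.1% of the listed genes rose. The list was chosen with earlier results of these data known, so this comparison is a description and not a test. Of the listed genes 27 lay over 1 log2 above the median on every array, and the part of brightness in their calls was not tested. Without GFP_min replicate b, whose labels disagree, 19 rose and 2 fell, and the median difference was 0.28. Of all tested genes 19.3% rose and 25.3% fell without it. The median difference, GFP_plus minus GFP_min, was 0.26 for the 31 genes and 0.0024 for all tested genes. The changes were moderate in size: the differences ran from −0.41 for Pfkp to 0.91 for Gys1, and none reached 1 log2. In 19 genes all GFP_plus arrays lay above all GFP_min arrays (27.2% of all tested genes) and in 5 they lay below (32.1%; 59.3% in either direction). The levels of the monocyte and neutrophil markers given above moved between the same arrays, and their part in these differences was not tested.

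**Figure D1:**
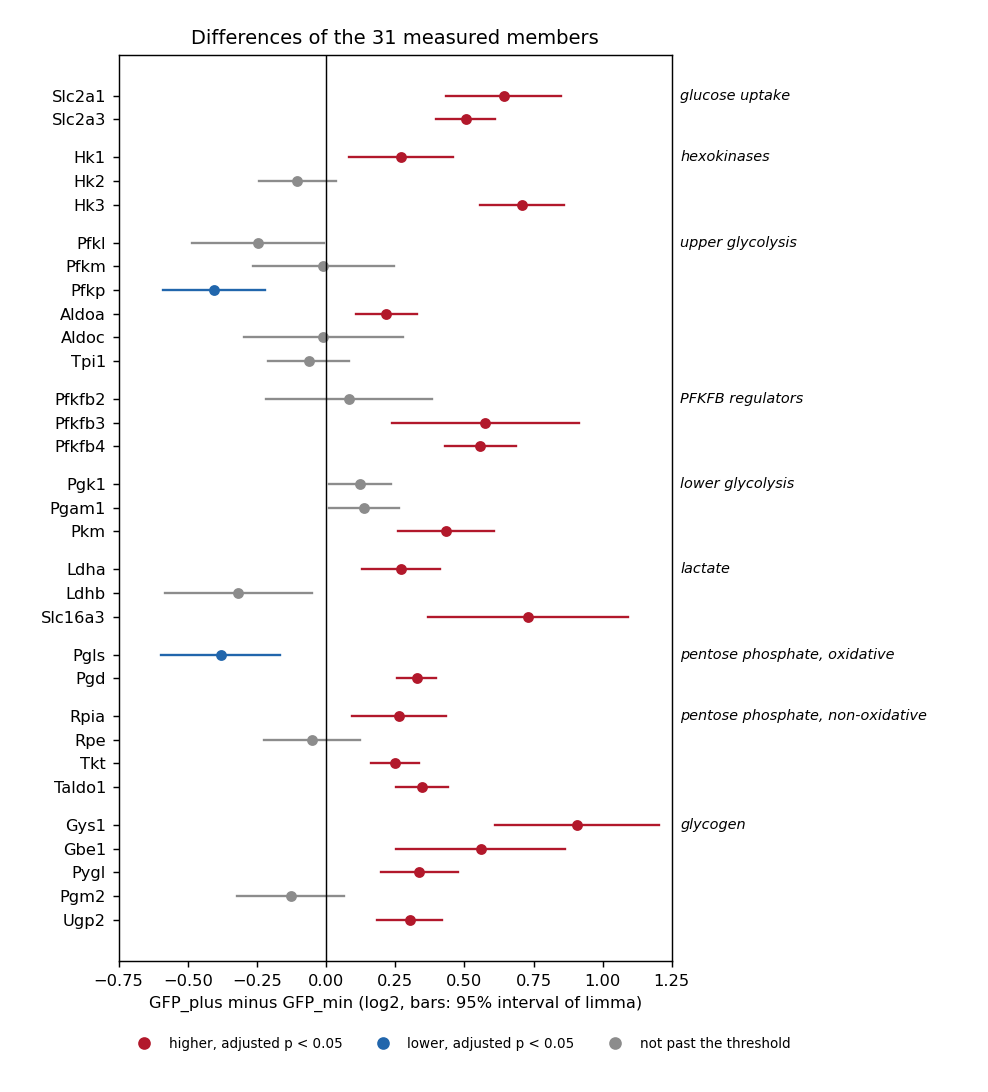
The x axis gives the difference, GFP_plus minus GFP_min, in log2 on the deposited scale for each of the 31 measured genes, ordered on the y axis by role; points are differences, bars their 95% intervals from limma with 3 arrays per group, and colour gives the call. The 18 genes that rose lie between 0.22 and 0.91, and the 2 that fell are Pfkp and Pgls. After centring on poly-A controls 12 genes were lower and 2 higher, where 55.8% and 3.89% of all tested genes were.

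The sign of a small difference depended on what the arrays were scaled to. Centring on the median of the tested probe sets adds 0.20 to every difference and centring on ribosomal protein genes adds 0.52, while centring on the bacterial poly-A RNAs that are spiked in before labelling adds −0.41. The median of all tested genes was then 0.20, 0.52 and −0.40, and that of the listed genes 0.47, 0.78 and −0.14, which leaves the listed genes 0.26 above all genes on each scale. Rises and falls made up 18 and 2 of the 31 genes as deposited, 20 and 0 with median centring, 28 and 0 with ribosomal centring and 2 and 12 with poly-A centring. Where 0 fell, 1 and 0 genes were lower at an unadjusted limma p under 0.05 with median and ribosomal centring. Of all tested genes 41.4% rose and 19.3% fell with median centring, 67.6% and 11.4% with ribosomal centring, and 3.89% and 55.8% with poly-A centring. The share of rises among the changed genes was 43.2% as deposited, 68.2% with median centring, 85.5% with ribosomal centring and 6.52% with poly-A centring. Of the listed genes, 9 lay above 0 on all 4 scales: Slc2a1, Slc2a3, Hk3, Pfkfb3, Pfkfb4, Pkm, Slc16a3, Gys1 and Gbe1. Since each centring adds 1 constant, these are the listed genes above 0 with poly-A centring. The share of all tested genes above 0 on all 4 scales was not counted. Of the 9, Hk3 and Gys1 were past the threshold on all 4. They are the 2 rises with poly-A centring, 6.45% of the listed genes against 3.89% of all tested genes. Per the labels 100 ng of total RNA was labelled, so RNA per cell cannot be read from any of these scalings. Which of them is right was not tested. The differences below are on the deposited scale.

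**Figure D2:**
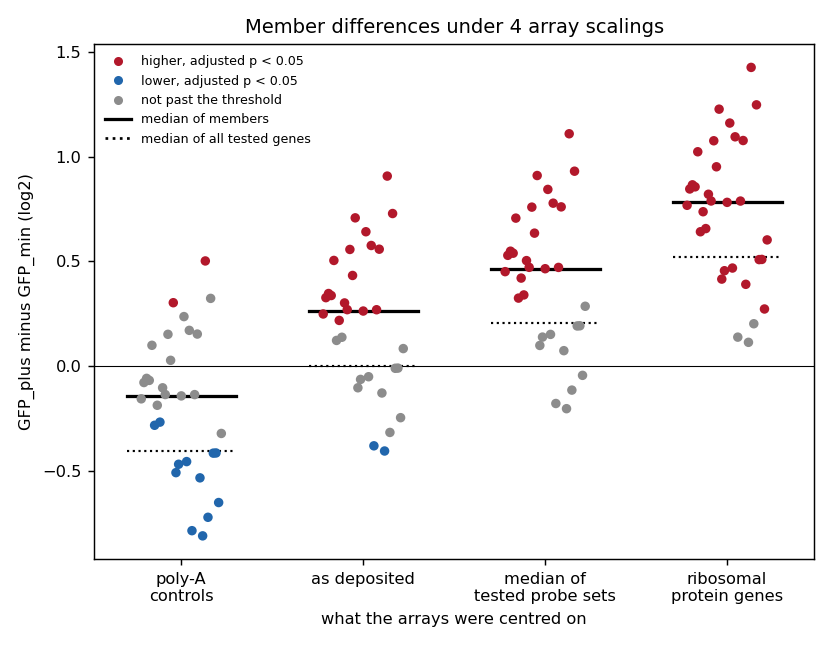
Each point is 1 of the 31 genes, the y axis is its difference in log2 (GFP_plus minus GFP_min), and the 4 columns on the x axis differ in what the 6 arrays were centred on; colour gives the limma call. The median of the listed genes (solid line) lies 0.26 above that of all tested genes (dotted line) in each column, and both medians lie below 0 with poly-A centring, at −0.14 and −0.40.

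Many glycolytic genes are known targets of the hypoxia-inducible factor HIF-1, whose response element has the core ACGTG, and promoters of genes that rose are shown because they carry it. A search of RefSeq promoters (GRCm38.p6), from 250 bases before to 50 after each start, on both strands found ACGTG for 19 of the 34 listed genes with a promoter in the table (55.9%). It was found in 10 of the 17 genes that rose, in 7 of the 11 tested genes that did not pass and in 0 of the 2 that fell. The share was 21.8% of all 27025 genes in the table and 29.5% of the 8823 of them that were tested on the arrays. The longer E-box CACGTG, which contains ACGTG, was found for 4 of the 34 listed genes (11.8%), 8.09% of all genes and 11.9% of those tested on the arrays. The 160 bases before the start are printed for 5 genes that rose, with ACGTG or its reverse complement CACGT in capitals.
Ldha, chr7:46845644-46845803, plus strand: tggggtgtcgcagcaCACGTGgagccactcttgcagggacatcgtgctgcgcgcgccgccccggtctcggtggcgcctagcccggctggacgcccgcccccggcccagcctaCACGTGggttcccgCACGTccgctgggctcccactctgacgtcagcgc
Slc16a3, chr11:120948907-120949066, plus strand: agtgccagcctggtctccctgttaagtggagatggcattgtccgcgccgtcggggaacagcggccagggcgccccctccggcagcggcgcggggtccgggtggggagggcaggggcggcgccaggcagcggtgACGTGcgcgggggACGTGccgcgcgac
Slc2a1, chr4:119108585-119108744, plus strand: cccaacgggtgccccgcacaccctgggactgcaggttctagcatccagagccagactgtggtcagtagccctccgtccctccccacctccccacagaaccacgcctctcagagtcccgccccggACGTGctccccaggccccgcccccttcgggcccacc
Hk3, chr13:55021386-55021545, minus strand: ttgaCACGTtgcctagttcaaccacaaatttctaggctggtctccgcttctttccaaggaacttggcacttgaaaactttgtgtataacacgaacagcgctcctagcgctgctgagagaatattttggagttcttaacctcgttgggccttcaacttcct
Pygl, chr12:70227684-70227843, minus strand: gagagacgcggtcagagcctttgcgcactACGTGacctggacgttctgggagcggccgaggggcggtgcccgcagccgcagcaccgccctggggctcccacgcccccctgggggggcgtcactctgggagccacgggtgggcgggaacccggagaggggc
The Ldha promoter printed held 5 overlapping or separate matches, of which 4 come from 2 palindromic CACGTG boxes, while the table's other Ldha promoter, at chr7:46846922-46847081, held 0. The promoter of Slc16a3, the lactate exporter, held 2. Slc2a1, Hk3 and Pygl held 1 each, at 36, 156 and 131 bases before the start. A match is a description of these letters. It was held by 58.8% of the genes that rose and 63.6% of those that did not pass.

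Glucose enters these cells through facilitative transporters. Slc2a1, the widely expressed transporter GLUT1, was 9.77, 9.48 and 9.76 in GFP_min replicates a, b and c and 10.31, 10.40 and 10.23 in GFP_plus. All GFP_plus arrays lay above all GFP_min arrays, a rise of 0.64 (SE 0.09, 1.56-fold, limma adjusted p = 0.000354) that all 3 of its tested probe sets shared. Slc2a3, the high-affinity transporter GLUT3, was 12.98, 13.03 and 12.88 in GFP_min and 13.48, 13.41 and 13.52 in GFP_plus. It rose by 0.50 (SE 0.05, adjusted p = 2.16e-05). Of its 4 tested probe sets 2 rose, and the other 2 were dim, with means of 3.31 and 3.62 in GFP_min. Read only from probe sets less open to cross-hybridisation (chosen after the values were seen), Slc2a3 differed by 0.44 (adjusted p = 0.15).

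Hexokinases trap glucose by phosphorylation, and their isozymes differed. Hk3, the isozyme of myeloid cells, was 10.51, 10.56 and 10.74 in GFP_min and 11.33, 11.33 and 11.27 in GFP_plus. It rose by 0.71 (SE 0.07, 1.63-fold, limma adjusted p = 2.60e-05), as did its other probe set. Hk1, the housekeeping isozyme bound to mitochondria, was 8.87, 8.96 and 8.81 against 9.14, 9.08 and 9.23, a rise of 0.27 (adjusted p = 0.0255). Leaving out GFP_min a or c or GFP_plus a or c ended the call, with differences of 0.26, 0.23, 0.27 and 0.23, and the mean of its probe sets differed by 0.06. Hk2, the inducible isozyme, was 10.91, 11.06 and 11.01 against 10.92, 10.83 and 10.92, so the groups overlapped (difference −0.10, 95% interval −0.24 to 0.04, adjusted p = 0.207).

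The difference between Hk3 and Hk2 on the same array, which no centring of arrays can move, was −0.40, −0.50 and −0.28 in GFP_min and 0.40, 0.50 and 0.35 in GFP_plus. It was thus 0.81 larger in GFP_plus, without overlap (exact two-sided permutation p = 0.1, the smallest that 3 against 3 arrays can give). On the deposited scale every Hk3 value lay below every Hk2 value in GFP_min, and above every Hk2 value in GFP_plus. The choice of pair thus fixed this separation and its p-value. The comparisons of Hk3 with Hk2, of Ldha with Ldhb and of Pgd with Pgls were chosen after the values were seen.

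**Figure D3:**
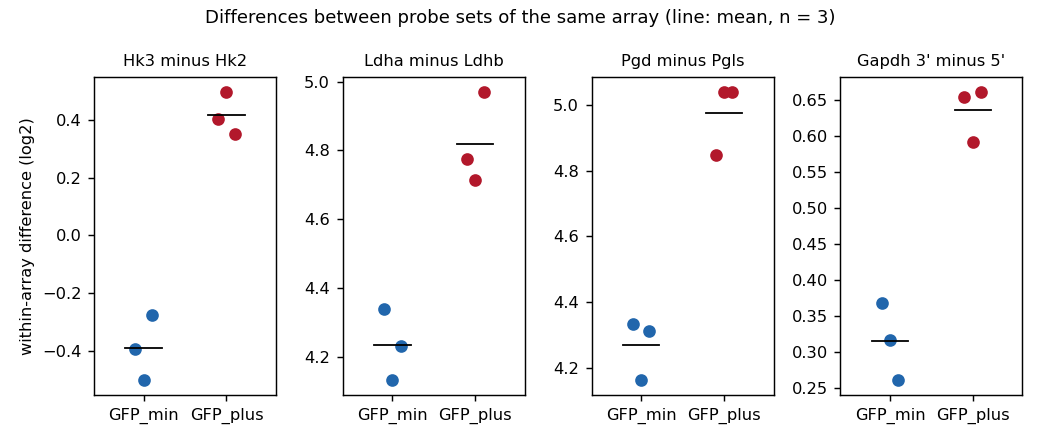
The y axis gives the difference in log2 between a pair of probe sets on the same array, for Hk3 and Hk2, Ldha and Ldhb, Pgd and Pgls, and the 3' and 5' control probe sets of Gapdh; points are the 3 arrays of each group on the x axis and lines their means. In each panel all 3 GFP_plus arrays lie above all 3 GFP_min arrays, by 0.81, 0.59, 0.71 and 0.32 on average. In all panels but the first, each probe set of the pair was separate by itself, in opposite directions, so the difference had to be separate. In the first, every Hk3 value lay below every Hk2 value in GFP_min, and above every Hk2 value in GFP_plus. That difference thus had to be separate too.

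In upper glycolysis, phosphofructokinase sets the pace and its 3 subunit genes had no rise on the deposited scale. Pfkp, the platelet-type subunit, was the only subunit gene well above the array medians and was 8.94, 9.07 and 9.01 in GFP_min and 8.63, 8.62 and 8.55 in GFP_plus. It fell by 0.41 on the log2 scale (limma adjusted p = 0.00291). With median centring the difference was −0.20 and with ribosomal centring 0.11, neither past the threshold. Its other tested probe set was dim (3.06 and 2.78) and differed by −0.28 (adjusted p = 0.0789). Pfkl, the liver-type subunit (means of 3.24 and 3.00), and Pfkm, the muscle type (3.35 and 3.34), lay within 1 log2 of the array medians on all 6 arrays, where a level is hard to tell from background. Aldoa, the main aldolase, which splits fructose 1,6-bisphosphate, rose by 0.22 (12.36 ± 0.04 to 12.57 ± 0.07, adjusted p = 0.00487), in 3 of its 5 probe sets. All 5 are of the kind more open to cross-hybridisation, and without the intensity trend in the limma fit the adjusted p was 0.0684. Aldoc, the brain aldolase, was dim (3.23 and 3.22). Tpi1, which interconverts the triose phosphates, was 10.80 ± 0.09 and 10.74 ± 0.04 (adjusted p = 0.458).

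The PFKFB enzymes make and break fructose 2,6-bisphosphate, the strongest activator of phosphofructokinase. Pfkfb3, the isozyme with the highest kinase activity, was 9.26, 8.78 and 9.25 in GFP_min and 9.65, 9.93 and 9.45 in GFP_plus. The rise was 0.58 (SE 0.15, limma adjusted p = 0.0113), and it was 0.42 to 0.69 with any 1 array left out. Pfkfb4 was 11.19, 11.27 and 11.21 in GFP_min and 11.76, 11.72 and 11.87 in GFP_plus, a rise of 0.56 (SE 0.06, 1.47-fold, adjusted p = 3.96e-05) with little spread in either group. Pfkfb2, known from heart, was 2.86, 2.70 and 2.93 against 2.99, 2.64 and 3.12, at the array medians in both groups.

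**Figure D4:**
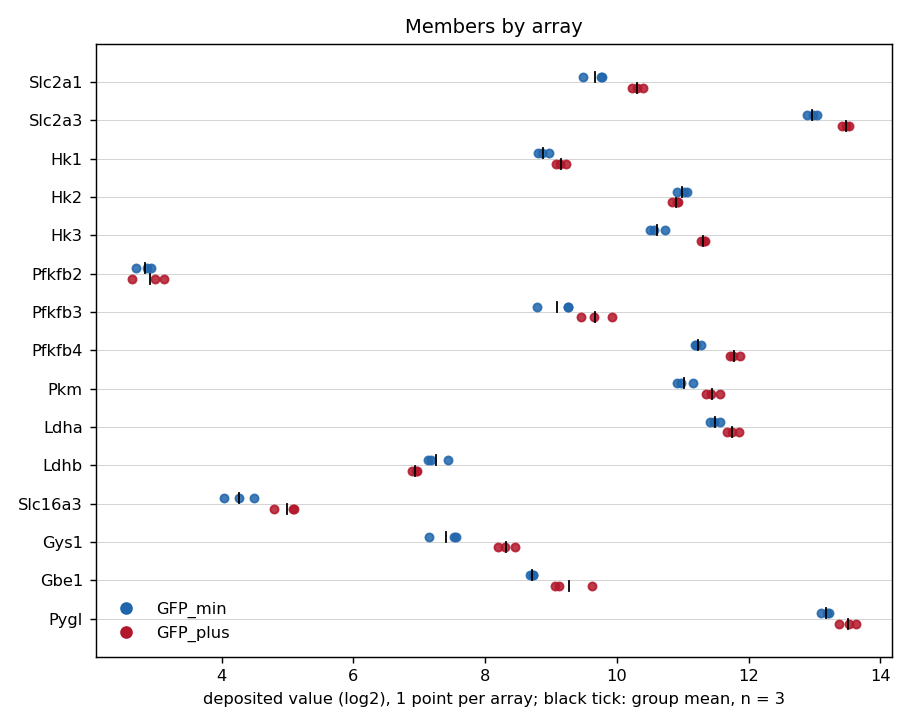
The x axis gives the deposited log2 value on each of the 6 arrays for 15 transporters and enzymes named on the y axis, with 1 point per array, blue for GFP_min, red for GFP_plus and a black tick for the group mean. The groups are separate for all but Hk2 and Pfkfb2, and Ldhb alone of the separated genes shown has GFP_plus below GFP_min. Of all tested genes 59.3% are separate, 27.2% with GFP_plus above and 32.1% below. Pfkl, Pfkp, Pgls and Pgm2, also separate with GFP_plus below, are not shown. Levels of different genes are not comparable since each has its own probe set.

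Lower glycolysis yields ATP and pyruvate. Pkm, pyruvate kinase, was 10.97, 11.15 and 10.92 in GFP_min and 11.42, 11.35 and 11.56 in GFP_plus, and rose by 0.43 (SE 0.08, 1.35-fold, limma adjusted p = 0.00136); splice forms were not told apart. Pgk1, phosphoglycerate kinase, was 12.76 ± 0.08 and 12.88 ± 0.05 in its brightest probe set (adjusted p = 0.0704), while its 2 other probe sets rose by 0.26 and 0.23. It passed without GFP_min b (0.17) or GFP_plus b (0.15). Pgam1, phosphoglycerate mutase, was 11.86 ± 0.10 and 12.00 ± 0.02 (adjusted p = 0.0743) and passed without GFP_min a (0.19).

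Gapdh, the glyceraldehyde phosphate dehydrogenase, is widely used as a reference gene. Its 3' control probe set was 12.95, 12.96 and 12.89 in GFP_min and 13.05, 13.04 and 13.08 in GFP_plus, and its 5' one was 12.58, 12.65 and 12.63 against 12.40, 12.45 and 12.42. The 3' end was thus higher and the 5' end lower in GFP_plus, without overlap in either. The gap between them, a sign of RNA quality or labelling, was 0.31 ± 0.05 in GFP_min and 0.64 ± 0.04 in GFP_plus (0.32 larger; exact two-sided permutation p = 0.1). The part of this gap in the differences of the other genes was not tested. The bright probe set that Gapdh shares with pseudogenes differed by 0.11 (adjusted p = 0.265).

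Pyruvate is reduced to lactate by lactate dehydrogenase, whose A subunit favours lactate formation and whose B subunit favours the reverse. Ldha was 11.47, 11.56 and 11.42 in GFP_min and 11.74, 11.67 and 11.85 in GFP_plus, a rise of 0.27 (SE 0.06, limma adjusted p = 0.00621). Ldhb was 7.14, 7.43 and 7.19 against 6.97, 6.95 and 6.88, lower on every GFP_plus array but just short of the threshold (−0.32, adjusted p = 0.0543). Of its 4 tested probe sets 1 fell. On the same array Ldha minus Ldhb was 4.34, 4.13 and 4.23 in GFP_min and 4.77, 4.71 and 4.97 in GFP_plus, larger by 0.59 (exact two-sided permutation p = 0.1). Since Ldha lay higher and Ldhb lower in GFP_plus without overlap, the choice of pair fixed this separation and its p-value. Slc16a3, the transporter MCT4 that exports lactate from glycolytic cells, was 4.49, 4.26 and 4.04 in GFP_min and 4.80, 5.08 and 5.10 in GFP_plus. It rose by 0.73 (SE 0.16, adjusted p = 0.00470) from a low level.

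From uptake to lactate export, 10 of 20 measured genes rose and 1 fell on the deposited scale, with a median difference of 0.18. With ribosomal centring 18 rose and 0 fell, and with poly-A centring 1 rose and 9 fell. Among all tested genes 21.0% rose and 27.6% fell as deposited. These shares were 67.6% and 11.4% with ribosomal centring and 3.89% and 55.8% with poly-A centring.

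Pentose phosphate genes rose in 4 of 6 on the deposited scale and 1 fell, with a median of 0.26. With poly-A centring 0 rose by limma (0 also at an unadjusted p under 0.05) and 2 fell. The shares of all tested genes that rose and fell were 21.0% and 27.6% as deposited and 3.89% and 55.8% with poly-A centring. In the oxidative branch, which makes NADPH, Pgd, 6-phosphogluconate dehydrogenase, rose from 13.48 ± 0.01 to 13.80 ± 0.02 (0.33, SE 0.03, limma adjusted p = 2.37e-05) in all 4 of its probe sets. Pgls, the lactonase of the preceding step, fell by 0.38 on the log2 scale, from 9.21 ± 0.11 to 8.83 ± 0.13 (adjusted p = 0.00942), but differed by −0.18 with median centring (adjusted p = 0.122) and by 0.14 with ribosomal centring (adjusted p = 0.208). The within-array difference of Pgd and Pgls was 0.71 larger in GFP_plus (4.27 ± 0.09 and 4.98 ± 0.11, exact two-sided permutation p = 0.1). Since Pgd rose and Pgls fell without overlap, the choice of pair fixed this separation and its p-value.

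In the non-oxidative branch, which returns pentoses to glycolysis, transaldolase Taldo1 rose from 13.43 ± 0.06 to 13.78 ± 0.05 (0.35, adjusted p = 0.000127). Transketolase Tkt rose by 0.25 (13.62 ± 0.05 to 13.87 ± 0.04, adjusted p = 0.000560), in 2 of its 3 probe sets. Rpia, the ribose 5-phosphate isomerase, rose by 0.26 (adjusted p = 0.0181), a call lost without GFP_min c (0.21), GFP_plus a (0.26) or GFP_plus c (0.22). Rpe, the epimerase that works beside it, was 9.77 ± 0.05 and 9.72 ± 0.10 (adjusted p = 0.624).

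Glycogen genes rose in 4 of 5 on the deposited scale, with a median of 0.34, where 21.0% of all tested genes rose. With poly-A centring 1 rose and 1 fell, where 3.89% and 55.8% of all tested genes did. Gys1, glycogen synthase, had the largest difference of the 31 genes, each read from its brightest probe set. It was 7.52, 7.56 and 7.15 in GFP_min and 8.31, 8.19 and 8.46 in GFP_plus, a rise of 0.91 (SE 0.13, 1.88-fold, limma adjusted p = 0.000399). Of the 10807 tested genes 232 had a larger rise. The other Gys1 probe set was dim (3.14 and 3.45) and differed by 0.31 (adjusted p = 0.12). With the mean of probe sets Gys1 rose by 0.61, less than Hk3 (0.75) and Slc16a3 (0.73). Gbe1, the branching enzyme, was 8.73, 8.69 and 8.72 in GFP_min and 9.12, 9.63 and 9.06 in GFP_plus, a rise of 0.56 (SE 0.14, adjusted p = 0.00811). It was 0.38 without GFP_plus b, the array that stands highest. Ugp2, which makes the UDP-glucose that glycogen synthase uses, rose by 0.30 (11.67 ± 0.07 to 11.97 ± 0.05, adjusted p = 0.00121) in 4 of 5 probe sets.

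Pygl, the phosphorylase that releases glucose 1-phosphate from glycogen, was 13.18, 13.11 and 13.23 in GFP_min and 13.52, 13.63 and 13.37 in GFP_plus, a rise of 0.34 (SE 0.06, limma adjusted p = 0.00160), without overlap. Pgm2, a phosphohexose and phosphopentose mutase, was 8.97 ± 0.11 and 8.84 ± 0.04 (adjusted p = 0.254).

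Other genes of sugar metabolism, from a list of 102 written from pathway knowledge, moved in both directions. Of 73 tested 14 rose and 24 fell, with a median of −0.04, against 21.0% and 27.6% of all genes. Where all 6 arrays had to exceed their median, 22 of 66 fell, against 28.0% of all 9538 genes. With ribosomal centring 40 of the 73 rose and 8 fell, against 67.6% and 11.4% of all genes. With poly-A centring 5 rose and 46 fell, against 3.89% and 55.8%. Ppp1r3b, which brings protein phosphatase 1 to glycogen, rose by 0.79 (9.97 ± 0.06 to 10.76 ± 0.07, limma adjusted p = 9.85e-06). Ppp1r3d, of the same family, rose by 0.95 (9.45 ± 0.06 to 10.41 ± 0.12). Fbp1, the fructose bisphosphatase of gluconeogenesis, was 4.90, 5.22 and 4.93 in GFP_min and 7.08, 6.56 and 6.44 in GFP_plus, a 3.21-fold rise (1.68, SE 0.19, adjusted p = 6.29e-05). The hexose transporter gene Slc2a6 rose by 0.68 and Slc37a2, a sugar phosphate exchanger of the endoplasmic reticulum, by 0.97.

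Among the genes that fell, Pgm2l1, a glucose 1,6-bisphosphate synthase, went from 6.07 ± 0.09 to 3.80 ± 0.24 (−2.27, limma adjusted p = 2.51e-06). Ribokinase Rbks fell by 1.39 on the log2 scale. Prps2, which activates ribose 5-phosphate for nucleotide synthesis, fell from 6.69 ± 0.17 to 5.19 ± 0.30. Pgm3, which acts in hexosamine synthesis, fell by 1.43, and Pdp2, a phosphatase that activates pyruvate dehydrogenase, was at least 1.35-fold lower, since it lay below the medians of all 3 GFP_plus arrays. Pdp2 and the transporter gene Slc2a8, which was named after its values were seen, passed the filter only through GFP_min, where they are higher, and both count among the 24.

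By group, and against the same 21.0% and 27.6%, 2 of 10 further glycolysis isozymes rose and 1 fell on the deposited scale. Of 7 transport genes 2 rose and 3 fell, and of 6 gluconeogenesis genes 2 rose and 1 fell. Of 16 other glycogen genes 3 rose and 5 fell. Pygb, the brain-type glycogen phosphorylase, fell by 1.68 on the log2 scale (6.16 to 4.48, limma adjusted p = 0.000311), against the rise of Pygl, and was named after its values were seen. Of 10 genes of pyruvate entry 1 rose and 5 fell, and of 8 regulators 4 rose and 1 fell. Among 7 ribose and other pentose phosphate genes 4 fell and 0 rose, and among 9 genes of other hexoses and hexosamine 4 fell and 0 rose by limma (0 rises in either group at an unadjusted p under 0.05 too).

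**Figure D5:**
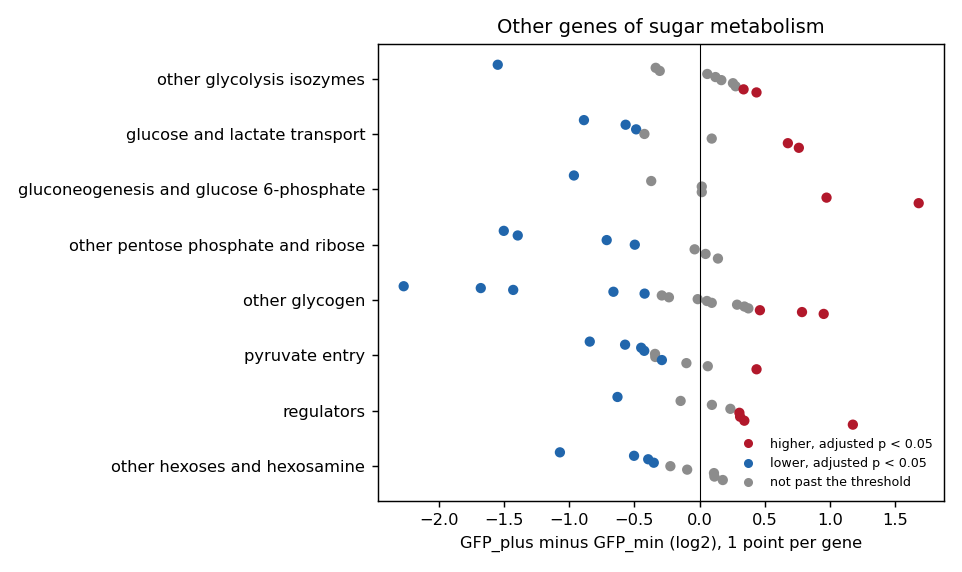
Each point is 1 of 73 tested genes of sugar metabolism outside the main list, placed by its difference in log2 (x axis, GFP_plus minus GFP_min, deposited scale) in 1 of 8 groups (y axis), and colour gives the limma call. Points past the threshold lie on both sides of 0, 14 to the right and 24 to the left as deposited, against 5 and 46 with poly-A centring. The shares of all tested genes were 21.0% and 27.6% as deposited and 3.89% and 55.8% with poly-A centring.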

How the data were processed

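Biotin-labelled total RNA of sorted marrow cells was hybridised to Affymetrix arrays, per the labels. The authors deposited log2 values for 45101 probe sets on 6 arrays. The submitters' processing notes name GCRMA, with no version or settings. The log2 scale was read from the range of the values.

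Arrays were grouped by title. Genes came from GEO's platform annotation, and a gene was read from its probe set of 1 symbol with the highest mean. Leaving out 64 controls, the filter kept 22956 probe sets above the array median on 3 or more arrays. The groups were compared by limma 3.58.1 in R 4.3.3 (lmFit, eBayes with an intensity trend), p-values were adjusted by Benjamini-Hochberg over those 22956, and the fit was checked on simulated data. Within-array differences had exact two-sided permutation tests.

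The genes, lists and tests were chosen with earlier results of these data known. Values on every array are given for listed genes past the threshold with a difference of at least 0.5 and for further isozymes whatever their call; of the wider list, up to 5 genes per direction with the smallest adjusted p are named. Alternatives covered filtering, variance modelling, weighting, scaling, choice of probe set, effect size, pairing by letter and leaving out arrays. Figures were drawn with matplotlib 3.10.9.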

Additional observations from a re-analysis of the deposited data

How the results depend on the processing

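With median centring 0 listed genes fell (1 at an unadjusted limma p under 0.05), of the wider list 28 rose and 13 fell, 0 genes of the glucose to lactate steps (1 unadjusted) and 0 of the pentose phosphate pathway (0 unadjusted) fell, and the listed genes' median was 0.47. With ribosomal centring 28 listed genes rose and 0 fell, 40 of the wider list rose and 8 fell, 18 of the glucose to lactate genes rose and 0 fell, 0 pentose phosphate genes fell (each 0 also unadjusted), and the median was 0.78. With poly-A centring 2 listed genes rose and 12 fell, 5 of the wider list rose and 46 fell, 1 glucose to lactate gene rose and 9 fell, 0 pentose phosphate genes rose (0 unadjusted) and 2 fell, 1 glycogen gene rose and 1 fell, and the median was −0.14. Among all tested genes 41.4% rose and 19.3% fell with median centring, and 67.6% and 11.4% with ribosomal centring. With poly-A centring 3.89% of them rose and 55.8% fell. The shifts between scales follow from the constant that each centring adds, and which scale is right was not tested. Requiring 1 log2 left 0 rises and 0 falls among the listed genes and in each of their role groups. In the wider list 2 rises and 7 falls were left, and among all tested genes 1.52% rose and 8.74% fell. With no size limit 20 listed genes were higher and 4 lower at an unadjusted limma p under 0.05. Without the intensity trend, and with the mean of probe sets, 2 glucose to lactate genes fell, where 26.6% and 28.3% of all tested genes fell. The Gapdh gap differed by 0.097 from 3' to middle and that of beta-actin by 0.061, with the groups overlapping in both, and the cause was not tested.

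Signs turned as follows. Median centring gave Hk2 0.10, Tpi1 0.14, Rpe 0.15, Pgm2 0.074, Pfkm 0.19 and Aldoc 0.19. Ribosomal centring gave Hk2 0.42, Tpi1 0.46, Rpe 0.47, Pgls 0.14, Pgm2 0.39, Pfkp 0.11, Ldhb 0.20, Pfkm 0.51, Aldoc 0.51 and Pfkl 0.27. Poly-A centring gave Tkt −0.16, Pgd −0.078, Taldo1 −0.058, Pygl −0.068, Pgk1 −0.28, Aldoa −0.19, Pgam1 −0.27, Ugp2 −0.10, Ldha −0.14, Rpia −0.14, Hk1 −0.14 and Pfkfb2 −0.32. Array weights gave Aldoc 0.040, quantile normalization Pfkm 0.042 and Aldoc 0.013, and the mean of probe sets Tpi1 0.077 and Rpe 0.037. With 1 array left out, Rpe ran from −0.095 to 0.0067, Pfkm from −0.083 to 0.052, Aldoc from −0.10 to 0.082 and Pfkfb2 from −0.019 to 0.22; the cause was not tested.

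Leaving out 1 array at a time gave 16 to 19 rises and 2 falls among the 31 listed genes. In the wider list of 73 tested genes it gave 13 to 16 rises and 19 to 23 falls. Of all tested genes 16.2 to 19.3% rose and 24.7 to 25.6% fell in these fits. With the letter as a replicate block 16 listed genes rose and 2 fell, with Hk1 and Rpia losing their calls. Of the wider list 11 rose and 19 fell, and of all tested genes 16.1% rose and 24.1% fell. The letters share only a letter: same-letter deviations correlated at −0.18, −0.30 and −0.22. With 3 arrays a group, and dim probe sets for Pfkl, Pfkm, Aldoc and Pfkfb2, small differences could not be resolved.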

Other observations

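Markers of other cells also differed between the sorted groups. Of 7 basophil and mast cell genes 6 rose and 1 fell, against 21.0% and 27.6% of all genes. Of the 6, Fcer1a and Cpa3 passed the filter only through GFP_plus, where they are higher, so their calls are favoured by the filter. The 7 genes had a mean level of 3.61 to 3.66 in GFP_min and 5.23 to 5.27 in GFP_plus. Of 6 eosinophil genes the 2 tested, Prg2 and Siglecf, rose, against 21.0% of all genes. The others, Prg3, Epx, Ccr3 and Il5ra, did not pass the filter on dim probe sets. Their means in GFP_plus were 2.18, 2.60, 1.65 and 2.06. The 5 tested proliferation genes had a mean level of 10.81 to 10.88 in GFP_min and 10.84 to 10.88 in GFP_plus. The part of these cells in the differences of the sugar metabolism genes was not tested.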
